A study of Rattus norvegicus with 14 samples.

Results

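The enzymes that remove peroxides and superoxide were followed in rat colonocytes (colonic epithelial cells) through 10 genes chosen by symbol. They were the peroxiredoxins Prdx1, Prdx2, Prdx3, Prdx5 and Prdx6, the glutathione peroxidases Gpx1, Gpx2 and Gpx4, the copper and zinc superoxide dismutase Sod1 and the catalase Cat. All 10 were on the array, with 12 of its 30367 probes and 10 of its 26276 gene names, because Gpx2 and Gpx4 each had a pair of probes. All 12 probes were well above background on all 14 arrays and none was saturated.

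Male Wistar rats, 5 to 6 weeks old on arrival, ate standard chow for 1 week and then, for 15 days, an isocaloric normal-protein diet (NPD, 14% of energy from protein) or high-protein diet (HPD, 55%), in which milk protein took the place of starch and sucrose. Colonocytes were detached from the colon with EDTA, and their RNA was labelled with 1 dye and hybridised to 1 Agilent array per rat, with 7 rats in each group analysed here. The question was how the diet shifted the transcripts of the colonic epithelium. The RNA of each array came from all detached cells, so fewer cells of a type and less RNA per cell cannot be told apart.

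Superoxide, formed by respiration and by oxidases of the epithelial surface, is turned into hydrogen peroxide by superoxide dismutases. Most peroxiredoxins reduce hydrogen peroxide with electrons from thioredoxin, glutathione peroxidases reduce it with glutathione at a selenocysteine, and catalase splits it inside peroxisomes. In the gut epithelium these enzymes limit peroxide that comes from the cell's own metabolism and from the lumen, and Gpx2 is known as the glutathione peroxidase of that epithelium.

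The values below are log2 signals relative to the median probe of the same array, and a level of one probe cannot be set against that of another. A log2 fold change is the HPD mean minus the NPD mean. The median signal was lower on the HPD arrays (89.4 to 130) than on the NPD arrays (113 to 180; exact two-sided permutation test, p = 0.00408), and correlations between arrays ranged from 0.970 to 0.992. The arrays lay on 2 slides, slide 1 with 4 NPD and 3 HPD arrays and slide 2 with 3 NPD and 4 HPD arrays. All 10 markers of absorptive colonocytes were well above background on all 14 arrays.

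With the diet as the only term, 0 of the 10 members passed a q-value of 0.1 (limma, Benjamini-Hochberg over all probes), as against 0.056% of all probes. The brighter probe of a gene stood for it in counts. By it 6 members were lower and 4 higher under the HPD, while 35.8% of all probes were lower. That share depended on the scaling and on brightness. It was 49.9% under cyclic loess, where 6 members were also lower. Among the probes well above background on all arrays of at least 1 diet it was 43.2%. In the fit with diet only, 23.7% of the 3037 brightest probes were lower, and these held 9 of the 12 member probes. Of the next 3037, with 2 member probes, 34.5% were lower. At an unadjusted p below 0.05, Prdx1 and Prdx6 were lower, 2 of 10 members as against 5.55% of all probes in that direction, and 0 were higher. This share also depended on brightness. In a fit of only the probes well above background, 9.71% were lower at that p, and so were Prdx1, Prdx3 and Prdx6. The diets' values overlapped for all 10 members, and did not overlap for 0.273% of all probes. The median log2 fold change of the members was -0.07 (range -0.85 to 0.27) and that of all probes was 0.11. Under cyclic loess, which removes trends with brightness, the median of all probes was 0.00067. Set against the 0.11, Prdx1 stood at -0.96, Prdx3 at -0.62 and Prdx6 at -0.55, while Gpx1 stood at 0.16, Gpx4 at 0.16, Sod1 at 0.10 and Gpx2 at 0.06. The 5 peroxiredoxins all had values below 0, from -0.85 to -0.01, although Prdx5 was above 0 under 4 of 32 settings. The 3 glutathione peroxidases lay between 0.17 and 0.27 by the brighter probe, with the other probe of Gpx2 and Gpx4 below 0. Over the 29 alternatives with a value per probe, the brighter probe was below 0 under 5 for Gpx2 and 0 for Gpx4, and the other probe was above 0 under 0 for Gpx2 and 2 for Gpx4.

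**Figure D1:**
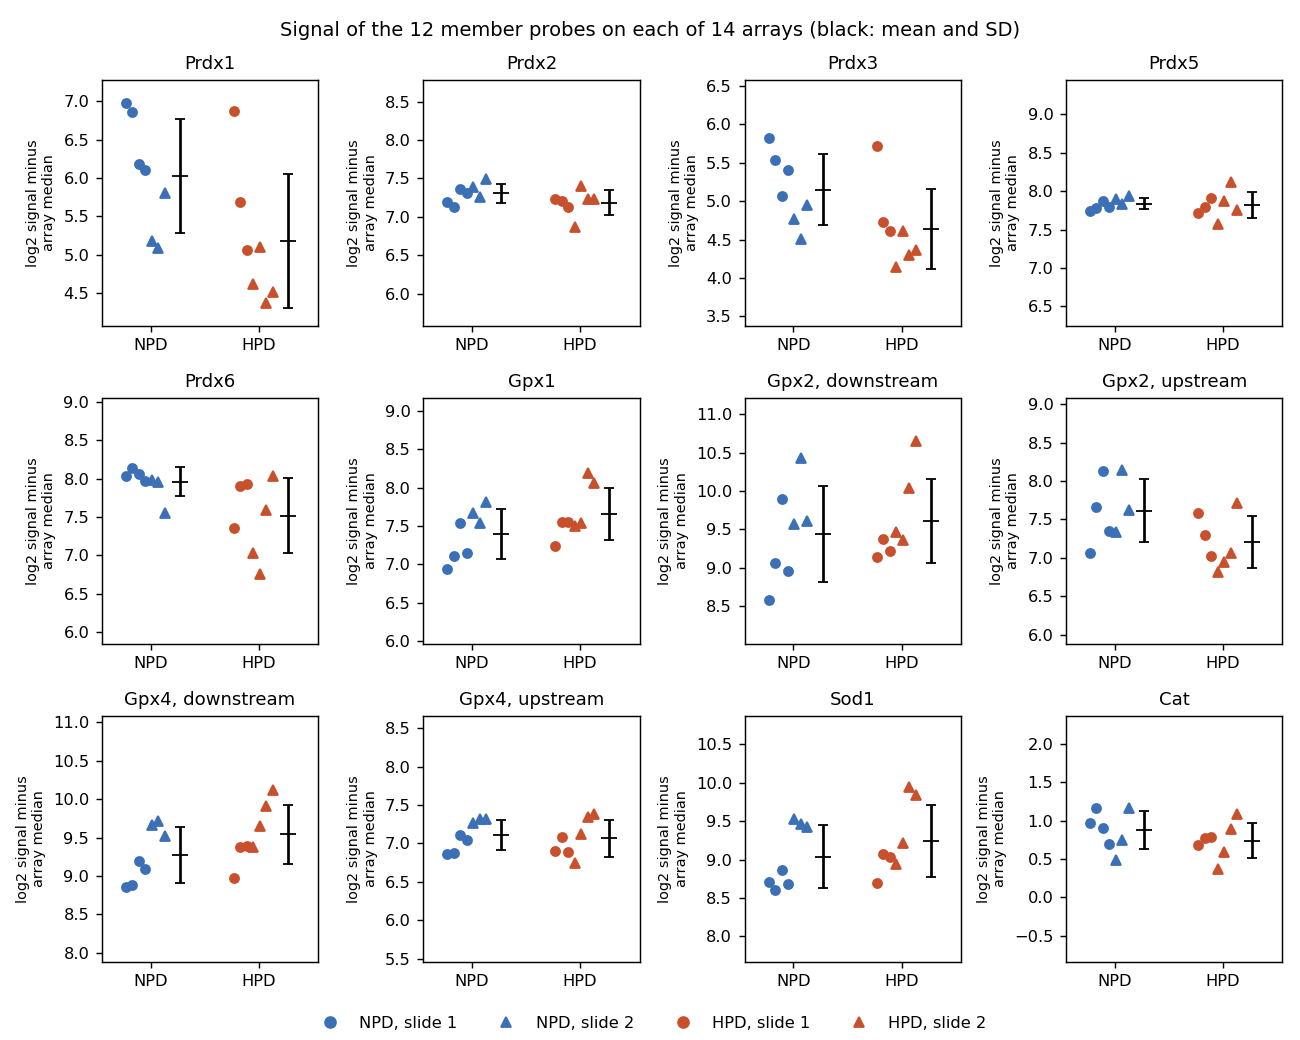
Each panel plots 1 member probe: the vertical axis is the log2 signal minus the array median (all panels span the same range), each point is 1 array, circles are slide 1 and triangles slide 2, blue is NPD and red is HPD, and the black mark is the mean with its SD (n = 7). The diets overlap in all 12 panels, and slide 2 lies low for Prdx1 and Prdx3 and high for Sod1 and the downstream probe of Gpx4.

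Prdx1, a cytosolic peroxiredoxin that takes its electrons from thioredoxin, had the largest difference among the members. Its probe starts at base 412 of the transcript by the array design, and its position on rn4, 5:136983425-136984996 on the plus strand, spans 1572 bases for a probe of 60 bases, so it crosses an intron. It is shown here beside the probe whose signal was most like it of 15279 other probes well above background on all arrays (one per gene name, slide means removed), which the design places on chromosome 2 at 25707088-25707147 with no gene symbol. Capitals mark the bases that are the same in both when the second is shifted by 4 positions, 51 of 56 aligned bases.
Prdx1 probe: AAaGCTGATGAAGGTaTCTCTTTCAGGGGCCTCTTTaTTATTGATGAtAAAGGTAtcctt
near-copy probe: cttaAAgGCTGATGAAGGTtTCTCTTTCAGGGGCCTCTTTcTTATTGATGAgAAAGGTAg
Labelled RNA of one locus may bind the probe of the other, so the Prdx1 signal is uncertain to that extent.

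The Prdx1 probe read 5.09, 6.11 and 6.98 (lowest, median and highest) on the NPD arrays. On the HPD arrays it read 4.38, 5.07 and 6.87. The HPD array of replicate 1 lay beside the 2 highest NPD arrays, while 4 of the 7 HPD arrays lay below every NPD array. These were replicate 3 on slide 1 and replicates 4, 6 and 7 on slide 2. The mean was 6.03 ± 0.74 (SD, n = 7) under the NPD and 5.18 ± 0.87 (SD, n = 7) under the HPD. The log2 fold change was -0.85 ± 0.39 (SE), a 1.80-fold higher level under the NPD, with limma's p at 0.0480 and its adjusted p at 0.437. The exact two-sided permutation test gave p = 0.0740 over all splits and 0.0351 when arrays were exchanged within slides only. The difference was -0.66 within slide 1 and -0.70 within slide 2, and a diet by slide interaction was not detected (-0.05, limma's adjusted p = 1.00). Slide 2 was lower than slide 1 by a further 1.20 ± 0.26 (SE; limma's adjusted p = 0.00405). Without HPD replicate 1 the log2 fold change was -1.13 with an adjusted p of 0.126 by limma, and without NPD replicate 1 it was -0.69 with 0.599.

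The near-copy probe gave nearly the same picture, 4.16, 5.14 and 6.08 on the NPD arrays and 3.55, 4.18 and 5.96 on the HPD arrays, with a log2 fold change of -0.84. Its correlation with Prdx1 over the 14 arrays, with slide means removed, was 0.998. The 4 genes next most like Prdx1 were Polr3d, a subunit of RNA polymerase III (0.971), the histone demethylase Kdm1a (0.966), the ribosome biogenesis gene Rpl7l1 (0.965) and Anp32a, a nuclear acidic phosphoprotein (0.961). Their log2 fold changes were -0.34, -0.33, -0.37 and -0.64, and none of the 4 passed the q-value.

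**Figure D2:**
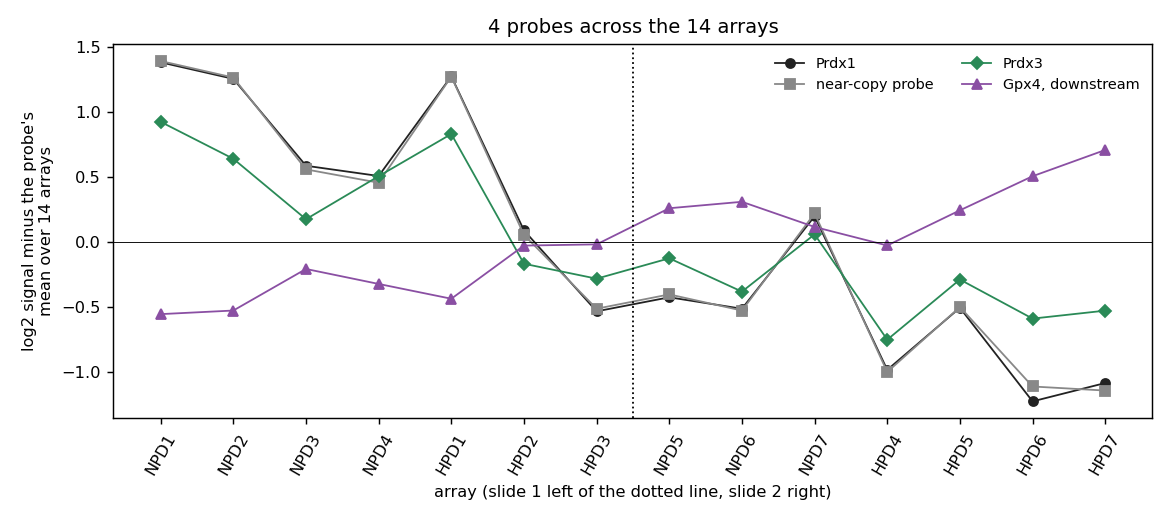
The vertical axis is the log2 signal minus the probe's own mean over the 14 arrays, and the horizontal axis lists the arrays by slide and diet; lines join the values of a probe only to help the eye. Prdx1, its near copy and Prdx3 share the high HPD1 array on slide 1 and lie mostly below 0 on slide 2, while the downstream probe of Gpx4 runs the other way.

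Prdx3, the peroxiredoxin of the mitochondrial matrix, is read by a probe on chromosome 1 (rn4, 267468941-267468999, minus strand). It read 4.51, 5.07 and 5.82 on the NPD arrays and 4.14, 4.61 and 5.72 on the HPD arrays. As for Prdx1, the highest HPD value was that of replicate 1. The 3 HPD arrays that lay below every NPD array were all on slide 2. The log2 fold change was -0.51 ± 0.25 (SE), with an adjusted p of 0.441 by limma and an exact permutation p of 0.0758, or 0.0482 within slides. It was -0.43 within slide 1 and -0.39 within slide 2. Without HPD replicate 1 it was -0.69, with an adjusted p of 0.126 by limma. Prdx3 and Prdx1 had the highest correlation of the 45 pairs of members, 0.93 over the 14 arrays with slide means removed (rho 0.93), and 0.95 and 0.91 within slides 1 and 2.

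Prdx6, the peroxiredoxin that works with a single cysteine and also acts on phospholipids, is read on chromosome 13 (rn4, 76825116-76825175, minus strand). The NPD arrays were tight, at 7.56, 7.98 and 8.14, with replicate 7 alone at the low end. The HPD arrays were spread over 6.76, 7.59 and 8.04, and 3 of them lay below every NPD array. The SD was 0.19 under the NPD and 0.49 under the HPD (n = 7 each), and this difference in spread was not tested. The log2 fold change was -0.44 ± 0.19 (SE), a level 1.36-fold higher under the NPD, with an adjusted p of 0.425 by limma, the lowest of the members. The exact permutation p was 0.0350, and 0.0571 within slides. Prdx6 did not share the array pattern of the other pair: its correlation with Prdx1 was -0.06 and with Prdx3 -0.002 over the 14 arrays with slide means removed.

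Prdx2 and Prdx5 differed least among the peroxiredoxins. Prdx2, cytosolic and abundant in red blood cells, read 7.13, 7.31 and 7.50 on the NPD arrays and 6.87, 7.23 and 7.40 on the HPD arrays. Its log2 fold change was -0.12 ± 0.10 (SE; 95% interval -0.34 to 0.10), with an adjusted p of 0.575 by limma. All 5 red blood cell markers on the array had higher values under the HPD (4 of 5 under cyclic loess), although only 2 of them were well above background on all arrays, with a summed level, in multiples of the array median, of 38.2 to 67.1 on the NPD arrays and 46.8 to 173 on the HPD arrays (exact permutation test, p = 0.0175). Of the 3037 dimmest probes, 4.64% were lower under the HPD. The part of these markers in the Prdx2 value was not tested. Prdx5, found in mitochondria, peroxisomes and cytosol, read 7.74, 7.83 and 7.94 under the NPD and 7.58, 7.79 and 8.12 under the HPD. Its log2 fold change of -0.01 had a 95% interval of -0.23 to 0.20.

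**Figure D3:**
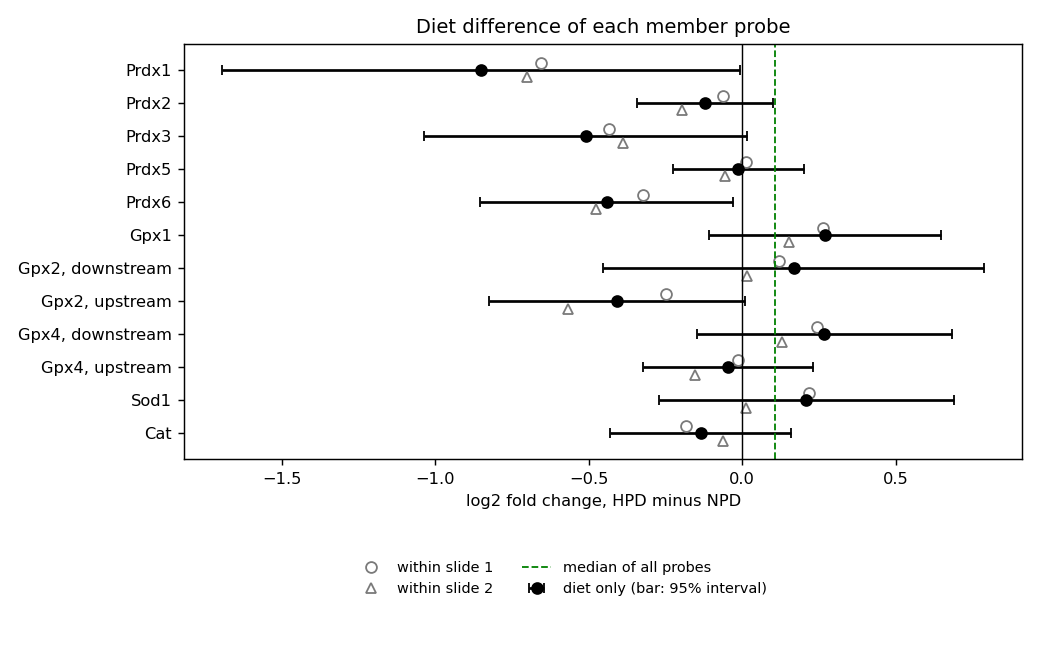
The horizontal axis is the log2 fold change, HPD minus NPD, with a row for each member probe: black points are the fit with diet only and bars its 95% interval (n = 7 per diet), open grey symbols are the differences within each slide, and the green line is the median of all probes, 0.11. Only the intervals of Prdx1 and Prdx6 lie wholly below 0, and the upstream probes of Gpx2 and Gpx4 lie to the left of the downstream ones.

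The pair of probes for Gpx2 gave opposite signs. The brighter one starts at base 945 of the transcript and the other at base 634, 311 bases upstream (rn4 chromosome 6, 99372423-99372482 and 99372734-99372793, minus strand). The upstream probe is shown because its value differs from that of the brighter one. It lies in the coding sequence: the frame that ends with its last 3 bases has no other stop codon, and the stop codon is in capitals.
Gpx2 upstream probe: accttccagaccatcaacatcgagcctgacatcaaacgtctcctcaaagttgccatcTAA
The downstream probe read 8.58, 9.56 and 10.4 on the NPD arrays and 9.14, 9.38 and 10.6 on the HPD arrays, and the diets overlapped almost wholly. Its log2 fold change was 0.17 ± 0.29 (SE), with an adjusted p of 0.779 by limma. It was 0.07 with slide as a block and -0.01 without HPD replicate 7. The normalized table that the authors deposited has 1 value per gene name, so it does not tell the probes apart, and there the log2 fold change of Gpx2 was -0.26.

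The upstream Gpx2 probe read 7.06, 7.63 and 8.15 on the NPD arrays and 6.82, 7.06 and 7.71 on the HPD arrays, with 3 HPD arrays below every NPD array. Its log2 fold change was -0.41 ± 0.20 (SE), with an adjusted p of 0.441 by limma and an exact permutation p of 0.0664. The difference between the probes, downstream minus upstream, was 1.83 ± 0.35 (SD, n = 7) under the NPD and 2.40 ± 0.51 (SD, n = 7) under the HPD (exact permutation test, p = 0.0338, and 0.00653 within slides).

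Gpx4, which reduces lipid hydroperoxides in membranes, showed the same order of its probes. The brighter one starts at base 919 and the other at base 517, 402 bases upstream (rn4 chromosome 7, 11162522-11162581 and 11163817-11163876, minus strand). The upstream sequence is given for comparison with that of Gpx2.
Gpx4 upstream probe: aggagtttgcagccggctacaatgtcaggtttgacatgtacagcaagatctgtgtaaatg
The downstream probe read 8.85, 9.20 and 9.72 on the NPD arrays and 8.97, 9.39 and 10.1 on the HPD arrays. On slide 2, 2 HPD arrays were above every NPD array. Its log2 fold change was 0.27 ± 0.19 (SE; adjusted p = 0.515 by limma). That of the upstream probe was -0.05 ± 0.13 (SE; adjusted p = 0.861). The downstream minus upstream difference was 2.16 ± 0.18 (SD, n = 7) under the NPD and 2.48 ± 0.22 (SD, n = 7) under the HPD (exact permutation test, p = 0.0186, and 0.00163 within slides). For both genes, the size of the diet difference thus differed between probes of the same transcript. The estimates also differed in sign, but the 95% interval of each probe held values of either sign, so a difference in sign was not shown.

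Gpx1, the glutathione peroxidase of cytosol and mitochondria, read 6.94, 7.53 and 7.81 on the NPD arrays and 7.23, 7.55 and 8.20 on the HPD arrays. Its design position is on an unplaced piece of rn4 chromosome 16. The medians lay close together, and 2 HPD arrays on slide 2 were above every NPD array. The log2 fold change was 0.27 ± 0.18 (SE; 95% interval -0.11 to 0.65), with an adjusted p of 0.515 by limma. It was above 0 under all 32 settings.

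Sod1, the cytosolic enzyme that makes hydrogen peroxide from superoxide, read 8.60, 8.87 and 9.53 on the NPD arrays and 8.69, 9.07 and 9.94 on the HPD arrays. Its log2 fold change was 0.21 ± 0.23 (SE), with an adjusted p of 0.650 by limma. It was 0.22 within slide 1 and 0.01 within slide 2, and the sign turned under 3 of 32 settings. Sod1 is read on chromosome 11 (rn4, 29810797-29810856, minus strand).

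Cat, the haem enzyme of peroxisomes, read 0.48, 0.91 and 1.16 on the NPD arrays and 0.37, 0.78 and 1.09 on the HPD arrays. Its probe crosses an intron on chromosome 3 (rn4, 88683063-88685007). The log2 fold change was -0.13 ± 0.14 (SE; 95% interval -0.43 to 0.16), with an adjusted p of 0.633 by limma.

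Several members differed more between slides than between diets. With diet and slide in the fit, 6 of the 10 members differed between slides at a q-value of 0.1, as against 40.1% of all probes. Prdx1 was lower on slide 2 by 1.20 and Prdx3 by 0.69, while Gpx2 was higher by 0.69, Sod1 by 0.65, Gpx4 by 0.57 and Gpx1 by 0.43. Of all probes, 2.49% had a larger absolute slide difference than Prdx1. In that fit the diet difference was -0.68 ± 0.26 (SE) for Prdx1, -0.41 ± 0.18 for Prdx3 and -0.40 ± 0.18 for Prdx6, each with an unadjusted p below 0.05 (3 of 10 members as against 7.32% of all probes in that direction), and 0 members were called, as against 0.0889% of all probes (lowest adjusted p of the members 0.256 by limma). The diet by slide interaction was called for 0 of the 30367 probes by limma, with 1.39% at an unadjusted p below 0.05.

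Since the probes of Gpx2 and Gpx4 differed by place, the same measure was taken on each array over all transcripts with at least 2 probes well above background on all arrays and 200 or more bases apart, a choice made after seeing the data. Its value was the median of the downstream minus upstream difference over 1285 pairs of probes of other genes, centred on each pair's mean. It ranged from -0.21 to 0.16 on the NPD arrays and from -0.26 to 0.26 on the HPD arrays (difference 0.12, exact permutation test, p = 0.189, and 0.121 within slides). The means of slides 1 and 2 were -0.13 and 0.13. With slide means removed, its correlation over the 14 arrays was -0.85 with Prdx1, -0.74 with Prdx3, 0.86 with the downstream probe of Gpx4, 0.77 with Gpx1 and 0.73 with Sod1. Without the 2 arrays farthest from the median these were -0.82, -0.70, 0.79, 0.69 and 0.64. Within slides 1 and 2 they were -0.93 and -0.76 for Prdx1, -0.96 and -0.44 for Prdx3, and 0.93 and 0.79 for the downstream probe of Gpx4. Prdx6 (0.28), Prdx2 (-0.06) and Cat (-0.01) varied little with it. With this measure as a covariate the log2 fold change was -0.29 for Prdx1, -0.20 for Prdx3, -0.44 for Prdx6, -0.15 for Gpx2, 0.01 for Gpx4 and -0.09 for Sod1, and 0 members were called, as against 0.0461% of all probes. The covariate also moved the array as a whole: the median of all probes became -0.0054, and 51.1% of them were lower. With slide added to this fit, Prdx6 stood at -0.62 ± 0.16 (SE; adjusted p = 0.328 by limma), Prdx1 at -0.30 and Prdx3 at -0.21, and 0 members were called. What sets the measure, and its part in the member values, was not tested.

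**Figure D4:**
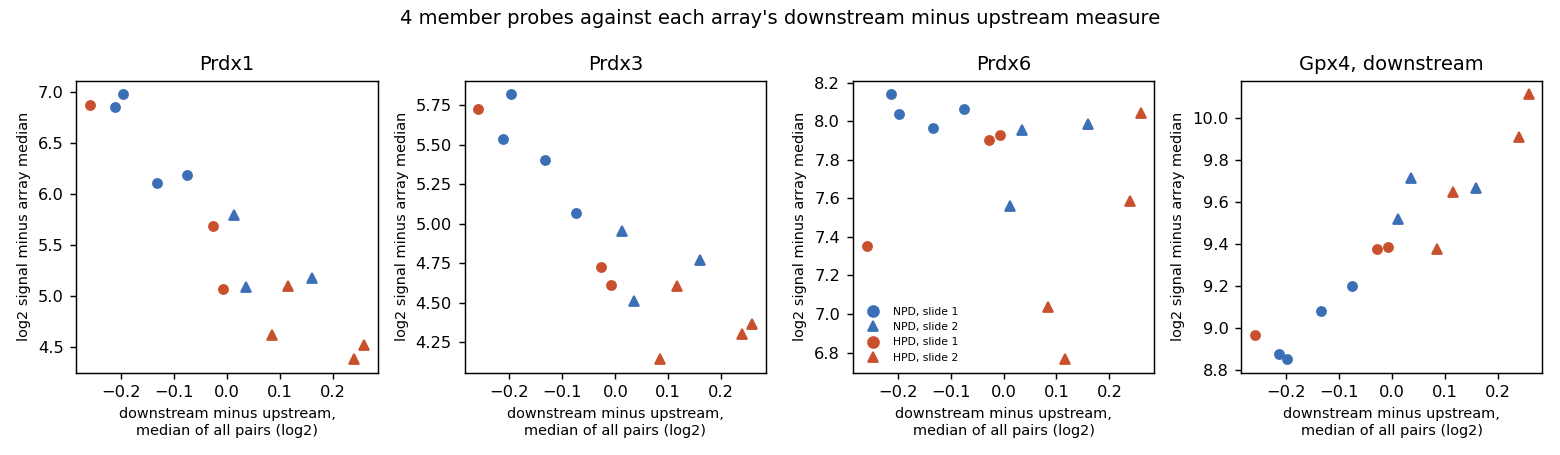
The vertical axis is the log2 signal minus the array median of 4 member probes, and the horizontal axis is each array's median downstream minus upstream difference over 1285 pairs of probes (log2); colours are diets and symbols slides. Prdx1 and Prdx3 run down and Gpx4 runs up along the measure on both slides. Prdx6 follows it less closely over both diets together, and mostly rises along it on the HPD arrays.

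Members passed the q-value under 3 alternatives. With normexp background correction, 2 of 10 members (Prdx2 and Prdx6) were called lower, as against 5.3% of all probes. With normexp and slide as a block, a combination chosen after seeing the data, Prdx1, Prdx2, Prdx3 and Prdx6 were called lower, 4 of 10 members as against 10.3% of all probes. With slide as a block in the deposited table, Prdx1, Prdx3 and Prdx6 were called lower, 3 of 10 members as against 6.5% of all gene names. The log2 fold changes of these called members ran from -0.79 to -0.26, and the 95% intervals of the fit with diet only held them all. The upstream probes of Gpx2 and Gpx4 are not in these counts. That of Gpx2 was also called lower with normexp (-0.55, adjusted p = 0.0931 by limma) and with slide added (-0.54, 0.0653). That of Gpx4 was called lower with normexp and slide as a block (-0.22, adjusted p = 0.0909 by limma). Prdx1, Prdx2, Prdx3, Prdx6 and Cat were below 0 under all 32 settings.

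**Figure D5:**
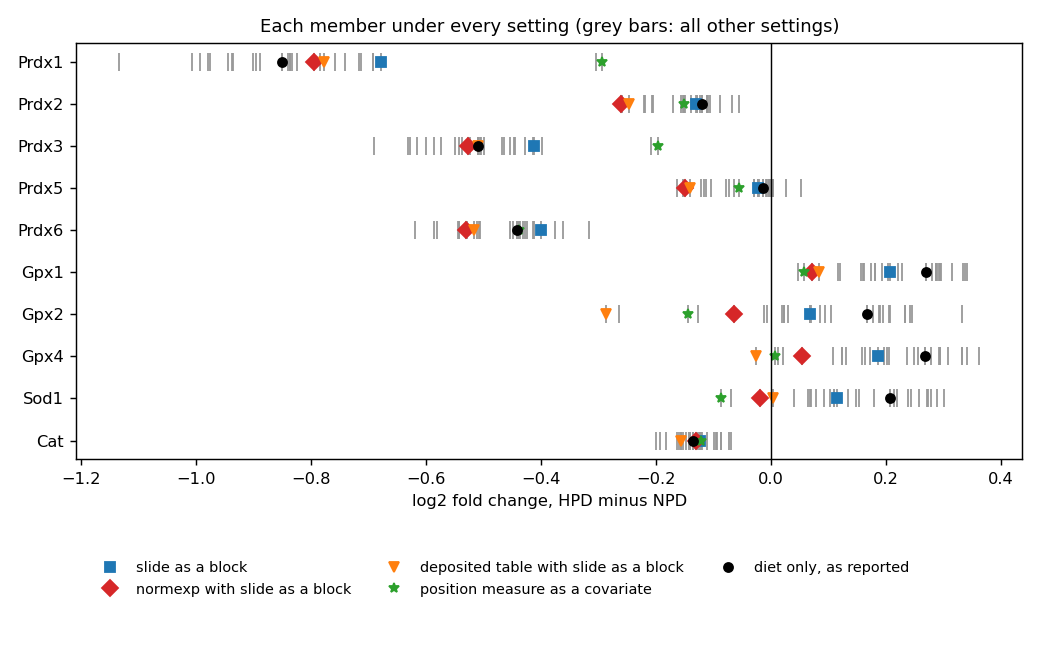
The horizontal axis is the log2 fold change, HPD minus NPD, of each member, with a mark for every setting, by its brighter probe or, in the deposited table, by its gene name: black is the reported fit, colours are 4 alternatives named in the key and grey bars are the others. Prdx1, Prdx3 and Prdx6 stay below 0 throughout, from -1.13 to -0.20, and Gpx2 lies on both sides of 0.

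Of 8 other members of these families on the array, 5 were higher and 3 lower, and 0 were called. Only 4 of the 8 were well above background on all arrays. At an unadjusted p below 0.05, 2 of the 8 were lower and 0 higher, as against 5.55% of all probes in the lower direction. That share was 9.71% in the fit of only the probes well above background. Gpx7, a peroxidase of the endoplasmic reticulum, had the lowest value, -0.37 ± 0.15 (SE; adjusted p = 0.418 by limma), and Gpx3, the secreted plasma enzyme, the highest, 0.30, though well above background on 1 of 14 arrays only. Of the 12 genes of thioredoxins, their reductases and related proteins, 6 were higher and 6 lower, from mitochondrial thioredoxin reductase Txnrd2 at -0.41 ± 0.22 (SE; adjusted p = 0.459 by limma) to sulfiredoxin Srxn1, which repairs overoxidised peroxiredoxins, at 0.28 ± 0.27 (adjusted p = 0.604). Of 7 genes that supply glutathione, 4 were higher and 3 lower. They ran from Gclm, the modifier subunit of the first enzyme of glutathione synthesis, at -0.59 but well above background on 1 of 14 arrays, to the cystine importer subunit Slc7a11 at 0.37 ± 0.35 (adjusted p = 0.603).

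Among 18 genes that produce superoxide or peroxide, 10 were higher and 8 lower, with 0 called. D-amino acid oxidase, Dao, had the highest value of any pathway gene, 1.23 ± 0.37 (SE), with an exact permutation p of 0.0122 but an adjusted p of 0.417 by limma, and was well above background on 11 of 14 arrays. Rac1, a GTPase of NADPH oxidases, had the lowest, -0.28 ± 0.13 (adjusted p = 0.438). Of 8 genes listed for selenoprotein synthesis and copper loading, 3 were higher and 5 lower. The copper importer Slc31a1 was highest at 0.23 ± 0.13 (adjusted p = 0.481), and Selp, the symbol of an adhesion molecule and no selenoprotein gene, lowest at -0.33, well above background on 3 of 14 arrays. Under cyclic loess the lower genes of these 5 lists numbered 4, 7, 3, 9 and 5 in the order given. The medians of the 5 lists lay between -0.03 and 0.12, beside 0.11 for all probes.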

How the data were processed

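Colonocyte RNA of 7 NPD and 7 HPD rats was measured on 1-colour Agilent arrays of 62976 spots. The authors deposited scanner files (Feature Extraction 10.7.3.1, per the file headers) that hold each spot's linear intensity, raw and background-subtracted, and a table of log2 values by gene name that they had normalized. They removed 1 outlying sample of each group, which were not analysed here. No column belonged to other samples. Diets and replicate numbers came from the labels.

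The background-subtracted intensity was log2-transformed without control and outlier-marked spots, averaged over the spots of a probe and centred on each array's median. Which signal and which centre the authors took is not given in the sources used here, and other choices were tried. The diet effect was fitted in R 4.3.3 with limma 3.58.1 (files were read with jsonlite 2.0.0 and data.table, 1.17.8; lmFit and eBayes, Benjamini-Hochberg over 30367 probes, q-value below 0.1), without a filter on signal. Exact permutation tests (two-sided) of single values ran over 3432 splits of the arrays and over 1225 splits within slides. The slide was read from the array identifiers in the file headers. The number of arrays limits the precision. The fit was tested on simulated data.

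The members and lists were chosen with earlier results of these data known. Named genes were all members, the highest, the lowest, any called and any non-overlapping gene of each list, and the 5 genes most correlated with the member of largest difference. Lists covered other family members, the thioredoxin side, glutathione supply, superoxide and peroxide sources, selenoprotein and copper genes, and markers of 7 cell types. Alternatives were the median or mean pixel signal, the 75th percentile as centre, quantile normalization, cyclic loess, normexp (offset 50), a filter on signal, a block for slide or for replicate number, a trend in eBayes, the authors' table, the mean of a gene's probes, a q-value below 0.05 and leaving out each array. Those chosen after seeing the data were normexp with slide as a block, centring spots before averaging, and the probe position measure as a covariate, alone and with slide. Gene names and rn4 coordinates were taken from the array design.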

Additional observations from a re-analysis of the deposited data

Results flagged for a closer look

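Of 24 sets of 7 arrays tested, 12 probes in each diet, 2 held an array whose gap to its nearest neighbour was large for the range of its group. Chance flags about 1 in 20 groups. For Prdx3 it was HPD replicate 1, at 5.72 with the next array at 4.73, and without it the log2 fold change was -0.69 (adjusted p = 0.126 by limma). For Prdx6 it was NPD replicate 7, at 7.56 with the next at 7.96, and without it the log2 fold change was -0.51 (adjusted p = 0.453 by limma).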

How the results depend on the processing

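Across the alternatives run, the number of members called was 0 except with normexp (2), slide as a block in the deposited table (3) and normexp with slide as a block (4). The number of probes called, 17 with diet only, was 27 with slide as a block, 40 with cyclic loess and slide as a block, 4179 with normexp, 2767 gene names with slide as a block in the deposited table, and 8153 with normexp and slide as a block. The cause was not tested. Leaving out 1 array at a time gave 9 to 151 called probes, the highest without HPD replicate 1, 28 without HPD replicate 6 and the lowest without NPD replicate 4 or 6, with 0 members called each time. It gave 5 to 7 lower members and member medians of -0.10 to -0.02. Over the settings 5 to 8 members were lower.

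The labels do not say that replicate numbers pair the arrays, and the numbers were not taken as pairs: 6 of 7 correlations of same-numbered deviations lay between 0.14 and 0.39, and that of replicate 4, whose arrays lay on different slides, was -0.09. Of the arrays, 1 of 7 NPD and 4 of 7 HPD arrays correlated best with their own number. With the replicate block 8 probes and 0 members were called, and Prdx1 (-0.85) and Prdx3 (-0.51) each had an adjusted p of 0.178 by limma, with HPD below NPD for 7 of 7 numbers. Unadjusted, limma's p with the block was 0.00201 for Prdx1, 0.00872 for Prdx3, 0.0492 for Prdx6, and, for higher values, 0.0256 for Gpx4 and 0.0383 for Gpx1. With this block 21.2% of all probes had an unadjusted p below 0.05, as against 11.4% with diet only. Those in the lower direction were 8.66% of all probes. With 7 arrays a diet, a 95% interval for Prdx1 ran from -1.69 to -0.01, so that a difference of a few hundredths and one above 1 on the log2 scale were both inside it.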

Other observations

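Markers of other cells were summed on each array as multiples of the array median, and 0 markers were called by limma in any list. Of 10 absorptive markers, 6 were higher and 4 lower under the HPD, which turned to 7 lower under cyclic loess, and the sums ranged from 8258 to 9883 on the NPD arrays and from 7977 to 12330 on the HPD arrays. Of 6 goblet cell markers, 2 were higher and 4 lower. Of 4 stem and cycling cell markers on the array, 2 were higher, and of 4 enteroendocrine markers, 1 was higher. Of 7 immune cell markers, 2 were higher and 5 lower, with sums of 34.6 to 104 on the NPD arrays and 33.8 to 42.9 on the HPD arrays (exact permutation test, p = 0.0484, unadjusted over 12 lists). Of 7 stromal and muscle markers, 3 were higher and 4 lower. The 5 red blood cell markers were higher, as given beside Prdx2. Under cyclic loess the other marker lists had 5 goblet, 2 stem and cycling, 3 enteroendocrine, 5 immune, 4 stromal and muscle and 1 red blood cell markers lower. The highest and lowest log2 fold changes of the lists were 0.33 for the chloride exchanger Slc26a3 and -0.36 for Krt19 among absorptive markers, 1.82 for Spink4 and -0.56 for Clca1 among goblet cell markers, and 0.44 for Lgr5 (well above background on 7 of 14 arrays) and -0.68 for Top2a among stem and cycling cell markers. They were 0.17 for the hormone gene Pyy and -0.29 for Chga, 0.34 for Itgam and -0.62 for Cd74 among immune cell markers, 0.61 for Col3a1 (well above background on 1 of 14 arrays) and -0.56 for Des among stromal and muscle markers, and 0.52 for Hba-a2 and 0.08 for Hbb among red blood cell markers. The Spink4 difference had an adjusted p of 0.417 by limma.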
